A study of Arabidopsis thaliana with 47 samples.

Results

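The response of cultured Arabidopsis thaliana leaf protoplasts to MB-3 at Day 6 was measured by setting 3 MB-3 libraries (replicates 6, 7 and 8) against 3 control libraries of the same day and the same replicate numbers. These 6 libraries were chosen by their labels and are 6 of the 47 in the series. The wider study followed leaf mesophyll protoplasts (cells stripped of their walls by enzymes) as they returned to division and formed callus. Both groups came from wild-type Columbia-0 plants 23 days old, and both were kept for 6 days in alginate gel in the dark in medium with the synthetic auxin 2,4-D at 1 mg/L and the cytokinin thidiazuron at 176 µg/L. The MB-3 condition differed from the control condition by the added inhibitor MB-3. Yucasin, an inhibitor of auxin synthesis, was added in another group of the same experiment.

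MB-3 inhibits histone acetyltransferases of the GCN5 type. These enzymes add acetyl groups to histone tails, a modification found at active promoters, and Arabidopsis GCN5 is encoded by HAG1. A protoplast that divides must copy its DNA in S phase and then pass through G2 and mitosis. In plants many genes of G2 and mitosis carry a short element with the core AACGG that is bound by MYB3R transcription factors, while many S phase genes carry elements bound by E2F factors. The culture holds dividing and non-dividing cells together, and in such bulk RNA fewer cells of a kind and less RNA per cell cannot be told apart.

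The mitotic genes that carry the main result are shown first by the stretch of promoter that holds the element. The letters are from RefSeq (TAIR10.1), on the minus strand and read 5′ to 3′, and capitals mark AACGG or its reverse complement CCGTT. CYCB1;1 and its relatives CYCB1;2 and CYCB1;3 encode B-type cyclins, which activate the kinase that drives entry into mitosis. MAP65-3 and MAP65-4 encode proteins that bundle microtubules in the dividing cell. KRP1, an inhibitor of cyclin-dependent kinases, is shown as a gene with several copies of the same core whose level did not pass the test.
CYCB1;1, chr4:17624309-17624483: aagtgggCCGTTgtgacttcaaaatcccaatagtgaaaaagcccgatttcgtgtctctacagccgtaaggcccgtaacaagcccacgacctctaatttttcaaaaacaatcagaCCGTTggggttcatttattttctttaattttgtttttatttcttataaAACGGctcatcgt
CYCB1;2, chr5:1861704-1861853: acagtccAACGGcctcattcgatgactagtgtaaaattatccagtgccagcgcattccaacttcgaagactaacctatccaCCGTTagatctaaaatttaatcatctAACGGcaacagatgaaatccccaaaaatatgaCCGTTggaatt
CYCB1;3, chr3:3627274-3627373: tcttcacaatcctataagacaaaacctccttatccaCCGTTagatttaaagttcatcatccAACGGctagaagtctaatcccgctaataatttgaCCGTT
MAP65-3, chr5:20964538-20964687: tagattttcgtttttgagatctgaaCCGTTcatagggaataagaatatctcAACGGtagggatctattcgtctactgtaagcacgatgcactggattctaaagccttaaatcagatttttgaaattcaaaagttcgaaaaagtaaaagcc
MAP65-4, chr3:22480981-22481080: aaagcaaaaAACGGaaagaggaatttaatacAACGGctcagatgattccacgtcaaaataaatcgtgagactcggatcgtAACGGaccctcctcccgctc
KRP1, chr2:9978091-9978315: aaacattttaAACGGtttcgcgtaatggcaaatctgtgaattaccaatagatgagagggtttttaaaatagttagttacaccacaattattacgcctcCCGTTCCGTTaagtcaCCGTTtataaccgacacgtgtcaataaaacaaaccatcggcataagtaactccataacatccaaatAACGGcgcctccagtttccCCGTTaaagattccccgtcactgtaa

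The 6 libraries had 5.07 to 11.58 M mapped reads. MB-3 replicate 6 stood apart: it was the shallowest at 5.07 M, and loci of the plastid genome took 4.72% of its counts, against 1.52% and 1.06% in MB-3 replicates 7 and 8 and 1.10% to 1.57% in the control libraries. It also had the highest summed level of G2/M phase genes among the MB-3 libraries. Some results that it moves are therefore given with and without it, and for others the values of each library are printed. Levels are in CPM, that is counts per M counts after TMM scaling, and 3 counts, taken as the floor, corresponded to 0.251 to 0.569 CPM. Libraries of a group differed by more than sampling noise (chi-square per degree of freedom of at least 5.42 for every pair) and are biological replicates per the study's methods. That value was 25.8 and 34.2 for MB-3 replicate 6 against replicates 7 and 8, and 6.57 between replicates 7 and 8. Among control pairs it was 5.42 to 10.3. P-values measure the spread between libraries within groups, estimated jointly over the 26 libraries of replicates 4 to 8, which hold other days and yucasin as well. The quasi-likelihood test of edgeR was used, and a gene was called where p and its Benjamini-Hochberg adjusted value were below 0.01 and the log2 fold change was beyond 2 in either direction. A gene is described as higher or lower at an adjusted p under 0.05 in the same test without a limit on the fold. All adjusted p-values below are from that test.

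At Day 6, 803 of 19043 loci tested were called (4.22%), 428 of them higher (2.25%) and 375 lower (1.97%) in MB-3 protoplasts than in control protoplasts. Without the fold limit, 2712 loci were higher (14.2%) and 2514 lower (13.2%). The calls lower included genes of mitosis, cell wall growth, procambium and auxin transport. The calls higher held 68 loci of the mitochondrial genome and 37 nuclear loci that share most of their sequence with it. The other 323 included the cutin synthesis gene GPAT6 and genes for secreted proteases, cytokinin breakdown and glutathione transfer. Genes named peroxidase were called in both directions, 6 higher and 2 lower of 65. Without MB-3 replicate 6 the calls numbered 443 higher and 518 lower, with 727 of the 803 kept. Under total-count scaling, which moved the median of all genes to -0.14 on the log2 scale, there were 356 higher and 433 lower, and with nuclear loci alone 347 and 386, so the direction with more calls was not the same in each of these settings.

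**Figure D1:**
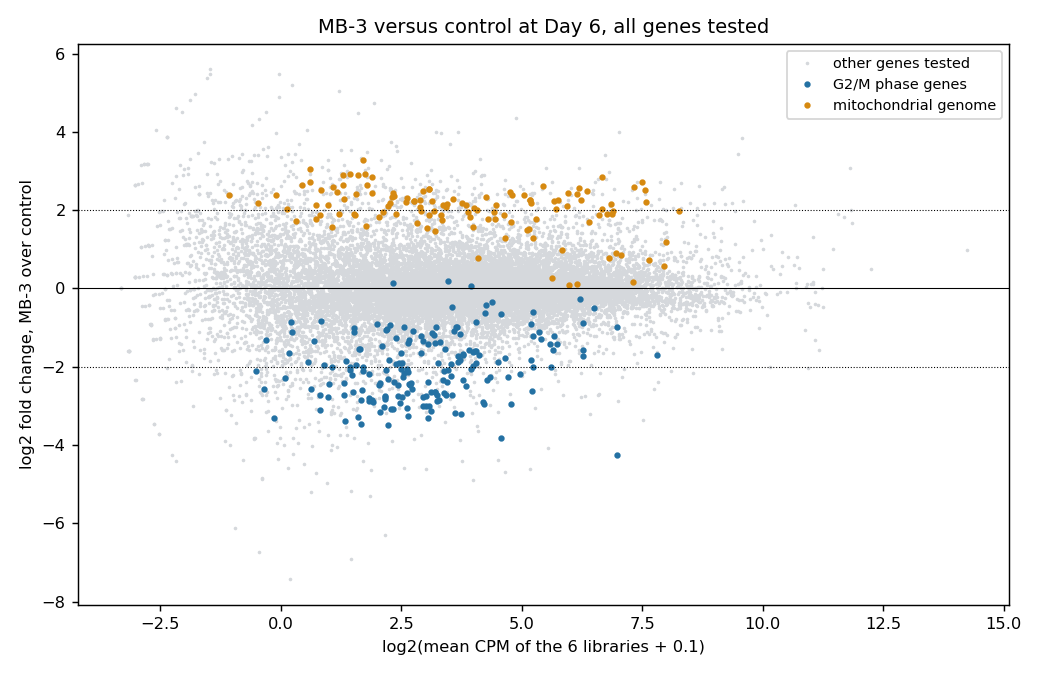
Log2 fold change of MB-3 over control at Day 6 for 19043 loci (vertical axis) against log2 of the mean CPM of the 6 libraries plus 0.1 (horizontal axis), each point 1 locus. G2/M phase genes (blue) lie mostly below 0 with a median of -2.05, mitochondrial genome loci (orange) lie above 0 with a median of 2.12, and dotted lines mark the fold limit of 2 on the log2 scale.

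Genes of G2 and mitosis were lower across nearly the whole list. Of 181 G2/M phase genes tested (183 listed, a published set of genes that peak at this phase), 94 were called lower and none higher. Without the fold limit 164 were lower and 0 higher, and for 171 every MB-3 library lay below every control library, where 47.9% of all loci tested had ranges that did not overlap, in either direction. The list median was -2.05 on the log2 scale, against -0.02 over all genes. The summed level of the list was 1961, 914 and 1207 CPM in MB-3 replicates 6, 7 and 8, against 4239, 3932 and 4205 CPM in the control replicates. All MB-3 libraries were below all controls, and MB-3 replicate 6 was closest to them. Without replicate 6 the median was -2.48 and 124 genes were called lower.

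Among the B-type cyclins, CYCB1;1 (AT4G37490) had 1.13, 0.744 and 0.804 CPM in MB-3 protoplasts, against 7.06, 6.15 and 5.76 CPM in control protoplasts (log2 fold change -2.86, SE 0.46, adjusted p 5.00e-05). CYCB1;3 (AT3G11520) had 2.74, 1.06 and 1.07 CPM with MB-3, against 15.5, 14.3 and 14.3 CPM in the control (-3.298, SE 0.43, adjusted p 3.51e-06). The groups of both genes were far apart, with replicate 6 the highest MB-3 library. CYCB1;2 (AT5G06150) showed that library more strongly, at 15.9 CPM against 2.66 and 3.82 CPM in the other MB-3 libraries and 30.3 to 37.1 CPM in the control (-2.27, SE 0.48). Its call was lost without MB-3 replicate 7 (-1.87) or without MB-3 replicate 8 (-1.92), and on the adjusted p in the fit of the 6 libraries alone (0.0138) and in DESeq2 (0.0204). CYCB1;4 and CYCB2;1 were called lower as well, at -3.07 and -3.10, the second at levels of only 0.106 to 0.644 CPM with MB-3. The call of CYCB2;1 was lost without MB-3 replicate 7 or 8 or control replicate 6 (adjusted p 0.0211, 0.0194 and 0.0111).

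The kinases and regulators that act with these cyclins followed the same pattern. CDKB2;1 (AT1G76540), a plant-specific kinase of G2 and mitosis, was called lower at -3.01 (SE 0.42), and its relatives CDKB1;2 and CDKB2;2 at -2.40 and -2.32. CDKB1;1 was called lower at -2.11, but not without MB-3 replicate 7, where it was at -1.72. CDC20.1 (AT4G33270), an activator of the complex that degrades mitotic proteins, had 21.1, 4.89 and 6.83 CPM with MB-3, against 71.9, 57.4 and 60.9 CPM in the control (-2.61, SE 0.47, adjusted p 1.81e-04). MB-3 libraries were again below all controls, with replicate 6 the highest. Genes for subunits of that complex did not pass the test, with APC10 at 0.06 and APC11 at 0.16 on the log2 scale.

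Genes of the spindle and of cytokinesis were called lower in 13 of 38 cases and lower without the fold limit in 29, with none higher in either count (list median -1.41). MAP65-3 (AT5G51600) had 2.09, 0.637 and 1.00 CPM in MB-3 protoplasts, against 9.52, 11.5 and 12.3 CPM in control protoplasts (-3.26, SE 0.41). MAP65-4 had 0.483, 0.106 and 0.603 CPM with MB-3, against 4.68, 3.81 and 4.86 CPM in the control (-3.38). Both were several-fold below the control in every library. TPX2, a nucleator of spindle microtubules, was at -2.71, the spindle checkpoint gene BUBR1 at -3.09 and the phragmoplast kinesin gene KINESIN-12B at -3.01. The syntaxin gene KNOLLE, needed to build the cell plate, had 58.4, 13.1 and 17.4 CPM with MB-3, against 87.3, 76.5 and 65.8 CPM in the control. It was lower at -1.41 but short of the call (adjusted p 0.0268), and it was called without MB-3 replicate 6, at -2.33.

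The S phase list moved less. Of 169 S phase genes, 1 was called higher and 1 lower, while 10 were higher and 66 lower without the fold limit, and the list median was -0.44. The replication genes PCNA1 and MCM3 were lower at -1.198 and -0.995, and CYCD3;1, a cyclin of entry into the cell cycle, at -1.25. The summed level of the list was 3353, 2690 and 2740 CPM with MB-3, against 3632, 3386 and 3555 CPM in the control. The ranges did not overlap, but MB-3 replicate 6 lay just below the lowest control library. Core histone genes for H3.1 and H4, which are expressed while DNA is copied, had 521, 547 and 504 CPM with MB-3, against 873, 782 and 872 CPM in the control, and 10 of 13 were lower without a call.

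None of the listed transcription factors and inhibitors that act on these genes was called in the main fit. Over all loci tested 4.22% were called, 14.2% were higher and 13.2% lower, so these counts are not read as a result about the lists. Of 13 genes for MYB3R, E2F and DP factors and RBR1, the retinoblastoma homolog, none was called and 3 were lower, with a list median of -0.06. MYB3R1 was at -0.10 and MYB3R-3, a repressor of the same targets, at 0.40. The activator gene MYB3R4 was lower at -1.91, and it was past the fold limit without MB-3 replicate 6, at -2.28, and under total-count scaling, at -2.03. Among 10 inhibitors of cyclin-dependent kinases none was called, 2 were higher and 2 lower. SIM and LGO were lower at -1.58 and -1.44, and ICK3 and KRP6 were higher by 1.04 and 0.79. KRP1 had 9.82, 11.7 and 12.3 CPM with MB-3, against 7.51, 7.84 and 8.45 CPM in the control (0.52, SE 0.20, adjusted p 0.0532), just short of the test although the groups did not overlap.

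None of 11 histone acetyltransferase genes passed the test in either direction. HAG1, which encodes GCN5, had 22.7, 23.5 and 23.0 CPM in MB-3 protoplasts, against 27.1, 24.7 and 23.7 CPM in control protoplasts (-0.12, adjusted p 0.526), with ranges that nearly touched. RNA levels give no measure of the enzymes' activity. Of 17 histone deacetylase genes 2 were lower and none was called, where 13.2% of all loci tested were lower.

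**Figure D2:**
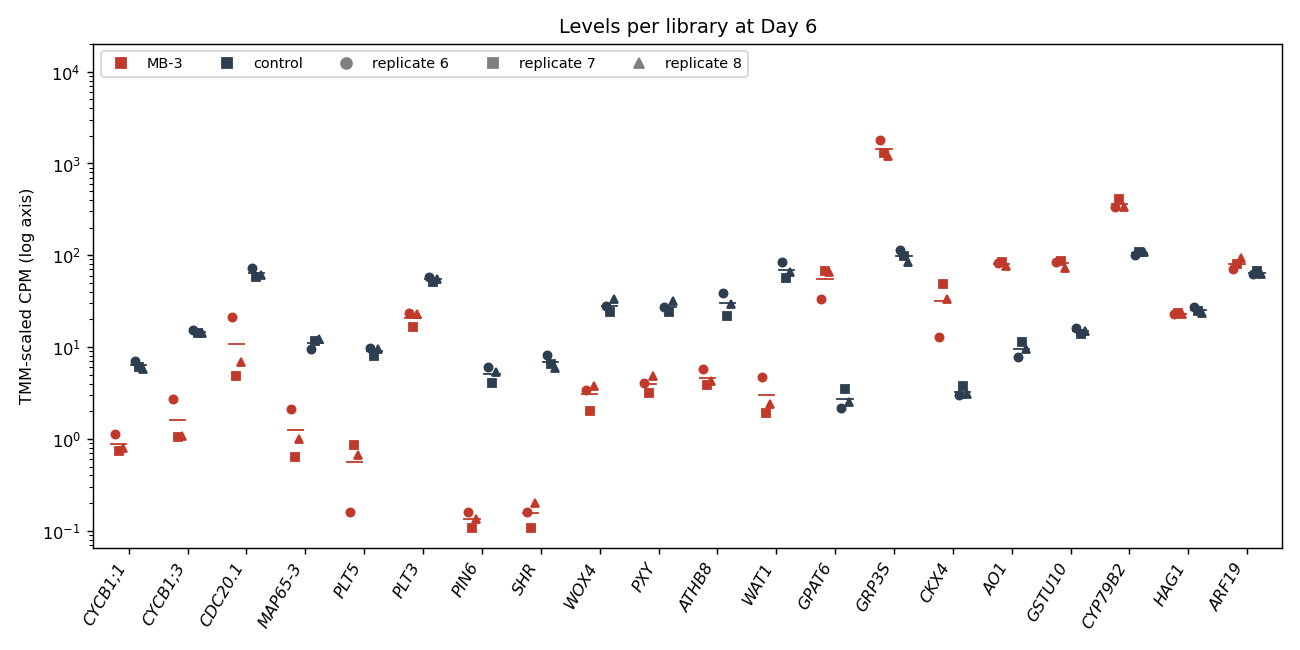
Level in CPM (log axis) of 20 genes in each Day 6 library, with MB-3 (red, left) and control (dark, right), symbols for replicates 6, 7 and 8 and bars for group means. The mitotic and procambial genes sit below the control in every MB-3 library (WOX4 at 2.02 to 3.82 CPM against 23.9 to 33.2 CPM), GRP3S sits at 1200 CPM or above with MB-3 against at most 113 CPM in the control, and HAG1 is at 22.7 to 23.5 CPM against 23.7 to 27.1 CPM.

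The promoter element was counted over the window from 250 bases before to 50 bases after each RefSeq start, on both strands, over 27443 promoters. AACGG occurred in 67.2% of the G2/M phase promoters (123 of 183), in 35.8% of the promoters of genes called lower (134 of 374), in 21.8% of those called higher (75 of 344) and in 24.7% of all promoters. Among the genes tested the share was 26.6%. In S phase promoters it was 36% (62 of 172), like that of genes called lower, although 1 of 169 S phase genes was called lower. At least 2 copies were found in 32.8% of G2/M phase promoters, 13.6% of genes called lower, 9.3% of S phase promoters, 2.03% of genes called higher and 4.89% of all. Outside the G2/M phase list, 23.9% of the genes called lower held a copy (67 of 280), close to the share among all promoters. Within the list the element was in 71.3% of the genes called lower (67 of 94) and in 62.9% of those not called (56 of 89). In the windows printed above CYCB1;1 has 3 copies and MAP65-4 has 3, while no copy was found for CDC20.1, CDKB1;1, CDKB2;1 and BUBR1, all called lower.

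Other elements were counted in the same windows. The E2F elements TTCCCGC and TTGGCGC occurred in 37.8% of S phase promoters, against 2.41% of all promoters and 1.87% of those of genes called lower. The W-box TTGACC, bound by WRKY factors, occurred in 21.2% of the promoters of genes called higher and 13.6% of those called lower, against 14.2% of all. The auxin response element TGTCTC was in 14.2% of genes called higher, 16.8% of genes called lower and 14.2% of all. The G-box CACGTG was in 5.23% of genes called higher, 9.09% of genes called lower and 7.68% of all. A match shows only that these letters lie in the window.

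Genes of procambium and vascular stem cells were called lower. WOX4 (AT1G46480), a homeobox gene that maintains cambial stem cells, had 3.38, 2.02 and 3.82 CPM in MB-3 protoplasts, against 27.7, 23.9 and 33.2 CPM in control protoplasts (-3.18, SE 0.32, adjusted p 1.53e-07). PXY (AT5G61480), the receptor kinase that acts upstream of it, had 4.02, 3.19 and 4.82 CPM with MB-3, against 27.3, 24.2 and 31.4 CPM in the control (-2.76, SE 0.25). ATHB8 (AT4G32880), an early marker of procambium, had 5.79, 3.82 and 4.29 CPM with MB-3, against 38.7, 21.7 and 29.8 CPM in the control (-2.72, SE 0.25). For these 3 genes the highest MB-3 library was at least 3 times below the lowest control library. PXY and ATHB8 were the only members of the 6 xylem and procambium markers that passed the filter on low counts. RUL1, a receptor-like kinase gene of the cambium, was called lower at -4.39 with 2.74, 0.531 and 0.871 CPM with MB-3, against 32.6, 20.8 and 23.2 CPM in the control.

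WAT1 (AT1G75500), which encodes a vacuolar auxin exporter needed for thick fiber walls, was also called lower. It had 4.67, 1.91 and 2.41 CPM with MB-3, against 84.8, 55.9 and 65.7 CPM in the control (-4.60, SE 0.33, adjusted p 2.10e-09). SHR (AT4G37650), a GRAS factor that moves out of the stele in the root, had 1, 1 and 3 counts in the MB-3 libraries. It had 8.10, 6.57 and 5.91 CPM in the control and was 41.9-fold lower with MB-3 (counting interval 17.7 to 130, adjusted p 8.51e-08). Neither gene had an MB-3 library near the control range. SUC1, a sucrose transporter gene, had 3.54, 2.02 and 1.27 CPM with MB-3, against 69.3, 30.7 and 28.7 CPM in the control (-4.37, SE 0.57). Its control libraries spread more than 2-fold, but none reached the MB-3 range. WAT1 and SUC1 were named by a rule that required ranges apart, so their separation is no further support.

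Most auxin carrier genes tested were lower. Of 8 carrier genes tested 5 were lower, 1 of them called, and none was higher (list median -1.27). The summed level was 194, 177 and 250 CPM with MB-3, against 451, 423 and 475 CPM in the control. PIN6 (AT1G77110), a carrier of the PIN family, had 1, 1 and 2 counts with MB-3, against 6.10, 4.03 and 5.31 CPM in the control, and was 39.1-fold lower (counting interval 15.1 to 145). The influx carrier gene AUX1 had 8.85, 7.44 and 8.30 CPM with MB-3, against 30.4, 30.9 and 28.6 CPM in the control (-1.87). The groups did not overlap for either gene. PIN3 (-0.52, adjusted p 0.073) and LAX1 (-0.76, adjusted p 0.087) did not pass the test, although their groups did not overlap either. LAX2 (0.34) did not pass and its groups overlapped.

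Genes that inactivate auxin moved the other way. In the list of GH3 enzymes, which conjugate auxin to amino acids, and the auxin oxidase DAO1, 5 of 8 were higher and none was called (list median 1.00). DAO1 (AT1G14130) had 340, 320 and 342 CPM in MB-3 protoplasts, against 139, 159 and 119 CPM in control protoplasts (1.27, SE 0.14). BRU6, also named GH3.2, had 410, 450 and 583 CPM with MB-3, against 208, 229 and 210 CPM in the control (1.16, SE 0.19). Both rose above the control in every library. GH3.3 was at 0.59 and GH3.1 at -0.70, and neither is described as changed. Genes for the main auxin synthesis route could hardly be measured, since 1 of 14 TAA1, TAR and YUC genes passed the filter and YUC1 had 0 counts in all 6 libraries. That gene was TAR2, an aminotransferase of the route, which was called higher at 2.50 (adjusted p 0.00188). Its call was lost without MB-3 replicate 7 or 8 or control replicate 6 or 8, with adjusted p-values of 0.0109 to 0.0167, and in the fit of the 6 libraries alone (0.0115).

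Auxin response genes were split. Among 22 Aux/IAA repressor genes 4 were higher and 5 lower, with a median of -0.07. Over all loci tested 14.2% were higher and 13.2% lower, so these counts are not read as a result about the family. IAA28 was called higher, 12.3-fold (counting interval 5.62 to 31.7), with 0.483, 2.55 and 2.48 CPM with MB-3, against at most 0.212 CPM in the control. IAA20 was called lower, with 1.13, 0.531 and 1.00 CPM with MB-3, against 6.39, 4.66 and 5.31 CPM in the control (-2.62). Both repressor genes had groups that did not overlap. Of 15 auxin response factor genes 4 were higher and 3 lower, none called.

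PLETHORA factors of stem cell niches and regeneration also differed among themselves. PLT5 (AT5G57390) had 0.161, 0.850 and 0.670 CPM with MB-3, against 9.89, 7.98 and 9.64 CPM in the control (-3.88, SE 0.44, adjusted p 6.08e-07). PLT3 (AT5G10510), the most abundant of the 3 tested, had 23.3, 16.6 and 22.9 CPM with MB-3, against 57.8, 51.6 and 55.8 CPM in the control, and was lower without a call (-1.40, SE 0.24, adjusted p 1.35e-04). Their relative PLT7 went the other way, at 8.21, 12.6 and 12.5 CPM with MB-3, against 6.39, 5.93 and 5.68 CPM in the control (0.91, adjusted p 0.00126). The groups did not overlap for any of these genes.

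Cell wall genes included several of the deepest falls, while most members of the wall families were not called. GH9B13 (AT4G02290), a glycosyl hydrolase, had 1.77, 1.17 and 2.41 CPM with MB-3, against 42.6, 52.0 and 49.7 CPM in the control (-4.69, SE 0.37, adjusted p 8.06e-09). AGP31 (AT1G28290), an arabinogalactan protein of the wall, had 10.6, 11.2 and 15.7 CPM with MB-3, against 215, 227 and 281 CPM in the control (-4.25, SE 0.36). AGP31 and the thaumatin-like gene ATLP-1 (-3.83) are on the G2/M phase list and led its falls, although neither encodes a part of the mitotic machinery. The peroxidase gene AT1G71695 had the largest fall among genes that averaged 10 CPM or more in the control with groups apart, at 2.25, 0.319 and 0.871 CPM with MB-3, against 48.6, 24.7 and 17.6 CPM in the control (-4.88, SE 0.49).

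Among enzymes that loosen or remodel the wall, 6 of 12 alpha-expansin genes were lower without a call (median -0.88), and their summed level was 817, 995 and 1275 CPM with MB-3, against 1784, 1709 and 2032 CPM in the control. EXPA15 and EXPA6 were lower at -1.94 and -1.86. Xyloglucan-modifying XTH genes went both ways, with 7 higher and 4 lower of 22. XTH4 had 30.6, 9.77 and 11.1 CPM with MB-3, against 171, 137 and 153 CPM in the control (-3.21, SE 0.46), while XTH29 and XTH25 were higher by 1.30 and 1.29. Of 8 cellulose synthase genes, CESA9 alone was called, at -2.71.

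**Figure D3:**
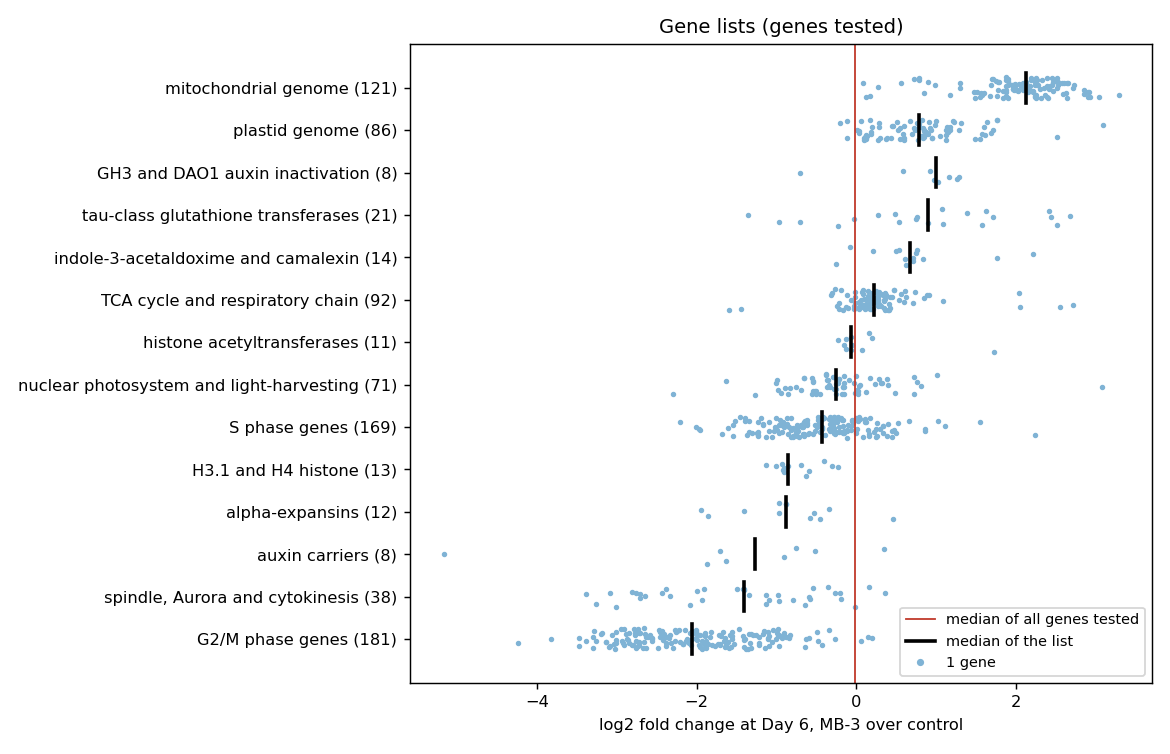
Log2 fold change of MB-3 over control at Day 6 for each tested member of 14 gene lists, with the list median as a black bar and the median of all genes (-0.02) as a red line. The G2/M phase list centers at -2.05, auxin carriers at -1.27, tau-class glutathione transferases at 0.89 and the mitochondrial genome at 2.12.

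The largest rise among genes named by rule was that of GPAT6. GPAT6 (AT2G38110), an acyltransferase of cutin synthesis, had 33.8, 67.2 and 66.5 CPM in MB-3 protoplasts, against 2.16, 3.53 and 2.54 CPM in control protoplasts (4.35, SE 0.37, adjusted p 1.92e-08). No other gene of the 16 on the cutin and suberin list was called higher, and none was called lower. The list median was -0.25, with 1 gene higher and 2 lower without the fold limit. Of 5 epidermis markers 2 passed the filter on low counts, and KCS6, an enzyme of wax synthesis, was higher, with 5.95, 19.0 and 15.7 CPM with MB-3, against 2.16, 5.72 and 3.21 CPM in the control (1.90, adjusted p 0.00125). The other marker, KCS10, did not pass the test and its groups overlapped (0.36, adjusted p 0.665). The list summed to 6.92, 21.8 and 17.0 CPM with MB-3, against 2.97, 7.06 and 4.56 CPM in the control, with ranges that overlapped, and the part of epidermal cells in these rises was not tested. The subtilase gene AT5G58840 had 270, 262 and 206 CPM with MB-3, against 13.2, 17.7 and 15.0 CPM in the control (4.01, SE 0.24, adjusted p 1.66e-10). Its neighbor on chromosome 5, AT5G58820, had 20.4, 19.2 and 16.6 CPM with MB-3, against 0.818, 1.48 and 1.196 CPM in the control. The 2 subtilases are of a family with related sequences, so reads may be shared between them. GRP3S (AT2G05380), a glycine-rich protein, had 1784, 1291 and 1200.0 CPM with MB-3, against 113, 98.3 and 84.2 CPM in the control (3.85, SE 0.27).

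Replicate 6 was the lowest MB-3 library for several other rises. The peroxidase gene AT5G64120 had 525, 1707 and 1714 CPM with MB-3, against 63.5, 159 and 143 CPM in the control (3.43, SE 0.41), and replicate 6 was lowest in both groups. ARPN, which encodes plantacyanin, had 9.17, 40.6 and 22.1 CPM with MB-3, against 1.19, 2.19 and 1.12 CPM in the control (4.00, SE 0.44). CYP72A14, a cytochrome P450, had 127, 244 and 212 CPM with MB-3, against 11.7, 23.5 and 19.8 CPM in the control (3.41, SE 0.32). In all 3 the lowest MB-3 library stood at least 3 times above the highest control library of that gene. These calls held under every alternative setting, and so did those of the other genes in the 12 largest rises and the 12 largest falls. These genes were picked as the largest changes with ranges apart, which favors both the separation and the stable calls.

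Cytokinin oxidase genes, whose enzymes break down cytokinin, were higher in part. CKX4 (AT4G29740), a cytokinin oxidase, had 13.0, 49.0 and 33.8 CPM in MB-3 protoplasts, against 2.97, 3.74 and 3.06 CPM in control protoplasts (3.302, SE 0.39). CKX2 had 2.74, 5.10 and 5.36 CPM with MB-3, against 0.892, 0.636 and 0.149 CPM in the control (3.00), close to the floor of detection in the control. CKX1 and CKX5 were higher by 1.43 and 0.73 without a call. CKX3, the most abundant, did not pass the test, with 103 ± 21.5 CPM with MB-3 and 116 ± 12.3 CPM in the control (SD, n = 3 each), and neither did CKX6 (0.47) and CKX7 (-1.81). In the whole list of type-A response regulators, cytokinin oxidases and related genes 8 of 19 were higher and none lower. The response regulators ARR6 and ARR7, which are induced by cytokinin, were higher by 1.14 and 0.90.

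Tau-class glutathione transferases, which conjugate toxic compounds, were higher in 12 of 21 cases, with 4 called, and lower in 2. GSTU10 (AT1G74590) had 85.3, 86.7 and 73.0 CPM with MB-3, against 16.3, 13.9 and 14.9 CPM in the control (2.44, SE 0.19, adjusted p 5.68e-09). GSTU8 had 117, 170 and 161 CPM with MB-3, against 27.6, 30.5 and 26.5 CPM in the control (2.41). GSTU25 and GSTU9 were called at 2.67 and 2.52, whereas GSTU6 was lower at -1.35. The aldehyde oxidase gene AO1 (AT5G20960) had 82.7, 83.9 and 76.2 CPM with MB-3, against 7.88, 11.4 and 9.49 CPM in the control (3.08, SE 0.21). AO1 was among the tightest of the rises.

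The indole-3-acetaldoxime branch, which leads to camalexin and indole glucosinolates, was higher in 7 of 14 genes and lower in none. CYP79B2 (AT4G39950), which makes the aldoxime, had 339, 408 and 336 CPM in MB-3 protoplasts, against 101, 109 and 108 CPM in control protoplasts (1.77, SE 0.23, adjusted p 3.33e-06), short of the fold limit. Its paralog CYP79B3 was at 0.61 (adjusted p 0.0717). CYP71A12, the next enzyme, was called at 2.21 with 214, 281 and 237 CPM with MB-3, against 50.1, 43.9 and 64.2 CPM in the control. All MB-3 libraries of CYP79B2 and CYP71A12 were more than 3 times above every control library.

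Transcripts of the mitochondrial genome were higher as a body. Of 121 loci, 68 were called higher and none lower, 117 were higher without the fold limit, and the median was 2.12. Their summed level was 10093, 6535 and 5630 CPM in MB-3 protoplasts, against 2340, 2463 and 2377 CPM in control protoplasts. MB-3 replicate 6 was the highest, and without it the median was 1.95 and 51 loci were called. These levels are of the organelle RNA that the mRNA kit captured, and the part of capture or library quality was not tested.

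COX3, a subunit of cytochrome c oxidase, had 313, 120 and 99.4 CPM with MB-3, against 23.1, 24.4 and 25.8 CPM in the control (2.85, SE 0.30). COX1 of the same complex had 500, 174 and 153 CPM with MB-3, against 41.6, 47.8 and 47.5 CPM in the control (2.59, SE 0.34). ATP1, a subunit of the ATP synthase, had 741, 401 and 322 CPM with MB-3, against 115, 131 and 125 CPM in the control (1.98, SE 0.32). Replicate 6 was the highest MB-3 library in each, and all MB-3 libraries were above all controls. NAD3, of complex I, did not pass the test, with 86.3, 69.2 and 65.8 CPM with MB-3, against 81.2, 56.4 and 65.0 CPM in the control (0.12, adjusted p 0.72).

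Nuclear copies of mitochondrial sequence cannot be told apart from the organelle in these counts. Among nuclear loci tested, 65 shared over 50% of their 31-base words with the mitochondrial genome, 63 of them on chromosome 2, and 37 of the 65 were called higher with a median of 2.08. The respiratory chain and TCA cycle list held 92 nuclear genes, and all 4 of its calls higher were loci of this kind, such as AT2G07777 (387, 276 and 215 CPM with MB-3, against 37.5, 49.3 and 47.3 CPM in the control). Calls higher made up 3.26% of the loci tested on chromosome 2, against 1.43% to 1.99% on the other chromosomes. In the plastid genome 27 of 86 loci were higher, none called, with a median of 0.79. Their summed level of 40068 CPM in MB-3 replicate 6 stood far from 12697 and 8489 CPM in MB-3 replicates 7 and 8 and from 8362 to 11947 CPM in the control. No plastid median without that library is given here.

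Nuclear genes that respond to mitochondrial dysfunction were higher in 5 of 14 cases without a call. NDB2, an alternative NADH dehydrogenase, was higher by 1.32 (SE 0.16) and AOX1D, an alternative oxidase, by 1.12 (SE 0.30). Photosynthesis genes moved little, with 3 of 71 nuclear photosystem and light-harvesting genes higher and 13 lower and a median of -0.25. RBCS1A, a small subunit of Rubisco, had 200, 97.7 and 75.0 CPM with MB-3, against 334, 281 and 217 CPM in the control (-1.16). Over the alternative settings its log2 fold change lay between -1.70 and -0.91. Mesophyll markers, all 10 of which were present in every library, summed to 979, 768 and 584 CPM with MB-3, against 1259, 1015 and 852 CPM in the control, so the ranges overlapped and 2 of the 10 were lower. Within each replicate number the MB-3 library had the lower sum. Guard cell markers summed to 10.6, 19.9 and 16.7 CPM with MB-3, against 8.48, 15.9 and 14.5 CPM in the control. Of the 5 tested 2 were higher, FMA at 1.39 (adjusted p 0.00738) and OZS1 at 1.22 (adjusted p 0.0135), while MYB60 was at -0.64 (adjusted p 0.320) and none was called.

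The comparison was repeated at Day 4 with its own control libraries, where 14 loci were called higher (0.0735%) and 234 lower (1.23%). The Day 4 libraries used here are replicates 4, 5 and 6, and those of Day 6 are replicates 6, 7 and 8. Differences between the days therefore cannot be told apart from differences between these replicate sets. Of the 375 loci called lower at Day 6, 124 were also called at Day 4, which is 33.1% of the Day 6 list and 53.0% of the Day 4 list, and 368 of the 375 had a negative value at Day 4. Of the 428 called higher, 13 were called at Day 4, 3.04% of the Day 6 list and 92.9% of the Day 4 list, and their Day 4 median was 0.76. The effect at Day 6 minus that at Day 4 passed an adjusted p of 0.05 upward in 664 loci (3.49%) and downward in 115 (0.604%). With the replicate number as a block, 1211 loci passed in all, 246 of them downward. The total of 779 (4.09%) went down to 349 without control replicate 6 of Day 6 and to 391 without MB-3 replicate 5 of Day 4.

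Few genes of the G2/M phase list passed that test. The list had a median of -2.27 at Day 4 and -2.05 at Day 6, the median of the difference was 0.00, and 2 of its genes were higher and 2 lower at Day 6 than at Day 4. The levels themselves differed between days in the control, where Days 2 and 4 are replicates 4 to 6 and Day 6 is replicates 6 to 8. The summed level had a median of 373 CPM in the Day 2 control, 1433 CPM in the Day 4 control and 4205 CPM in the Day 6 control, while MB-3 protoplasts had 568 CPM at Day 4 and 1207 CPM at Day 6. The range of the MB-3 libraries at Day 6, 914 to 1961 CPM, overlapped that of the Day 4 control, 1194 to 2138 CPM.

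The falls of WOX4, PXY and ATHB8 were larger at Day 6 than at Day 4. WOX4 averaged 2.57 CPM in MB-3 and 3.79 CPM in control protoplasts at Day 4 and 3.07 CPM in MB-3 and 28.3 CPM in control protoplasts at Day 6, and the difference between the 2 effects was -2.64 (adjusted p 0.00205). For PXY that difference was -1.74 (adjusted p 0.00516) and for ATHB8 it was -1.47 (adjusted p 0.0232). For RUL1, which was already called lower at Day 4, it was -1.18 and did not pass (adjusted p 0.401). The summed level of the xylem and procambium markers was 6.93 to 7.45 CPM with MB-3 at Day 4, against 12.3 to 20.7 CPM in the Day 4 control, and 7.01 to 9.98 CPM with MB-3 at Day 6, against 46.1 to 66.4 CPM in the Day 6 control. The MB-3 level at Day 6 lay close to that of the Day 2 control, 7.62 to 9.44 CPM.

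For several rises the control level was lower at Day 6 than at Day 4. GRP3S averaged 2489 CPM with MB-3 and 442 CPM in the control at Day 4, and 1425 CPM with MB-3 and 98.5 CPM in the control at Day 6, with a difference between the effects of 1.36 (adjusted p 0.0225). AT5G64120 averaged 2285 CPM with MB-3 and 1331 CPM in the control at Day 4, and 1315 CPM with MB-3 and 122 CPM in the control at Day 6 (2.65, adjusted p 0.00531). AO1 averaged 84.9 CPM with MB-3 and 40.6 CPM in the control at Day 4, and 81.0 CPM with MB-3 and 9.58 CPM in the control at Day 6 (2.01, adjusted p 5.77e-04). As a ratio, MB-3 protoplasts changed less between the days than control protoplasts in these 3 genes, which restates the positive differences above. In CPM the fall of GRP3S was larger with MB-3. Among mitochondrial loci 73 of 121 had a larger effect at Day 6 and none a smaller one.

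**Figure D4:**
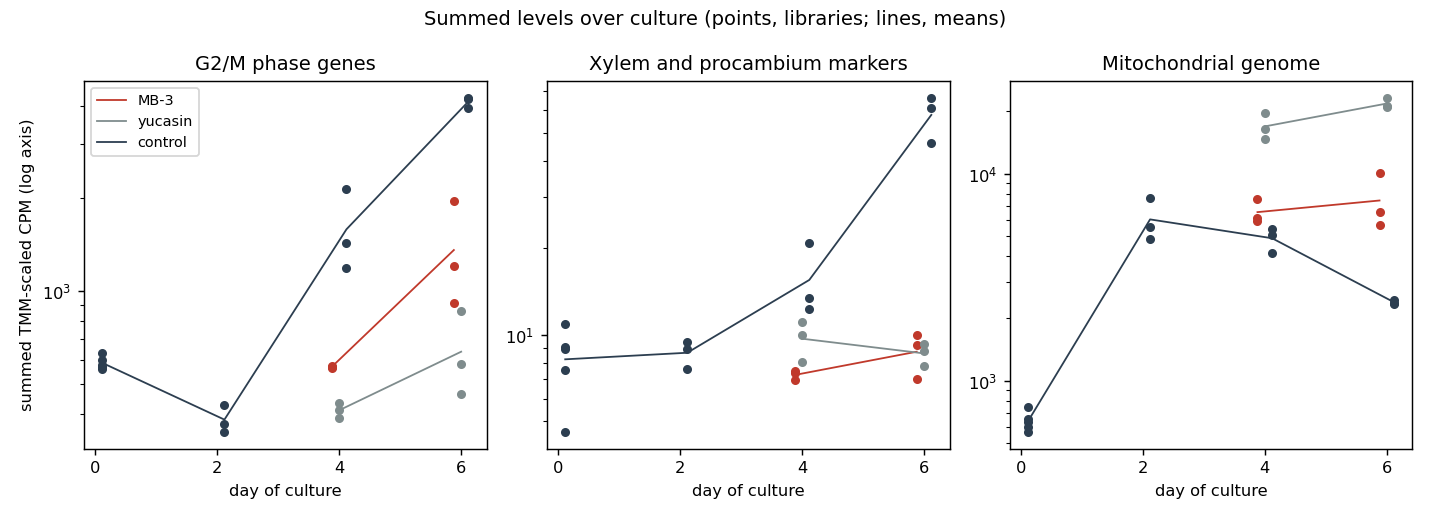
Summed CPM (log axis) of G2/M phase genes, xylem and procambium markers and mitochondrial genome loci at Days 0, 2, 4 and 6, with a point per library and lines through group means for MB-3, yucasin and control. By Day 6 the G2/M sum is 914 to 1961 CPM with MB-3 and 3932 to 4239 CPM in the control, and the mitochondrial sum is 5630 to 10093 CPM with MB-3 and 2340 to 2463 CPM in the control. Days 2 and 4 hold replicates 4 to 6 and Day 6 holds replicates 6 to 8.

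MB-3 was also set directly against yucasin at Day 6, where 233 loci were called higher (1.22%) and 627 lower (3.29%). Under total-count scaling, which moved the median of all genes from 0.01 to 0.37, the split was 472 higher and 386 lower, so the direction of the majority depends on the scaling. The G2/M phase list was higher with MB-3 than with yucasin by a median of 1.57, and the mitochondrial genome was lower, with a median of -1.66. Beside the same control libraries, which both comparisons share, the medians for the G2/M phase list were -2.05 with MB-3 and -3.85 with yucasin. For the mitochondrial genome they were 2.12 with MB-3 and 3.84 with yucasin, for auxin carriers -1.27 and -1.92, and for GH3 and DAO1 genes 1.00 with MB-3 and 2.59 with yucasin.

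Some single genes differed between the inhibitors and others did not. WOX4 averaged 3.07 CPM with MB-3 and 2.96 CPM with yucasin (0.06, adjusted p 0.918). PXY averaged 4.01 CPM with MB-3 and 5.23 CPM with yucasin (-0.36, adjusted p 0.312). Both genes were below every control with either inhibitor and did not pass the test between the inhibitors. GPAT6 averaged 55.8 CPM with MB-3 and 23.9 CPM with yucasin (1.23, adjusted p 0.00268). CYP79B2 averaged 361 CPM with MB-3 and 249 CPM with yucasin (adjusted p 0.0562, with the replicate block 0.0490). SUC1 averaged 2.28 CPM with MB-3 and 8.90 CPM with yucasin (-2.11, adjusted p 0.00783).

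A separate experiment with its own controls held MB-3 and control protoplasts at Day 14, where 358 of 20205 loci were called higher (1.77%) and 709 lower (3.51%). Over the 18623 loci tested in both, 79 were lower on both days, 22.1% of the Day 6 list and 13.8% of the Day 14 list, and 49 were higher on both, 13.5% and 15.7% of those lists. Opposite calls numbered 2 among the Day 6 falls and 8 among the Day 6 rises. GH9B13 was at -5.33 at Day 14 and WAT1 at -3.42, AO1 was at 2.40, and CYP79B2, which was higher at Day 6, was at -3.42. Of 2462 loci without a count in replicates 4 to 8, Day 14 MB-3 libraries had counts at 1.75%, 9.75% and 5.36% and Day 14 control libraries at 47.5%, 4.22% and 84.7%. Small values of control replicates 1 and 3 at Day 14 may hold background, and its part in the Day 14 calls was not tested.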

How the data were processed

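Per the labels and the study's methods, the authors sequenced stranded mRNA libraries with single-end reads and mapped them to TAIR10 with Bowtie 0.12.9. The deposited values are raw read counts per splice variant. A read shared by variants of a locus was counted for each, which the count of 1 variant avoids. Counts of 1 variant still came to 103.2% to 104.1% of the mapped reads in the 6 libraries. Some reads may therefore have been counted at more than 1 locus. Trimming and the use of strand in counting are not given in the sources used here. Counts of the lowest-numbered splice variant of each locus were analyzed in R 4.3.3 with edgeR 4.0.16 (filterByExpr, TMM, quasi-likelihood test). The fit held all 26 libraries of replicates 4 to 8 by group, with no block in the main fit since none is described in the methods. The Day 14 comparison was fitted in the 12 libraries of replicates 1 to 3. Standard errors were derived from the F statistic. Genes were called where p and adjusted p were below 0.01 and log2 fold changes were beyond 2 in either direction.

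Day 6 MB-3 and control libraries share the numbers 6, 7 and 8. The deviations of same-numbered libraries from their group means correlated at 0.40, 0.26 and 0.37 across 19043 genes. The libraries can therefore be paired by number, although whether a number marks 1 isolation is not stated. The main fit, from which the calls and p-values come, did not pair them. A fit with the number as a block was an alternative. The others were DESeq2 1.42.0, total-count and RLE scaling, other filters, nuclear loci alone, summed variants, a likelihood-ratio test, the 6 libraries alone and leaving out each library. The code was tested on simulated data.

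Genes named by rule were the 12 largest rises and 12 largest falls among calls averaging 10 CPM or more where higher, with ranges that did not overlap, a fixed set of key genes, and up to 3 called members of each list. Other members named were chosen after their values were seen. The comparison, the gene lists and the key genes were chosen with earlier results of these data known, so no list was tested as a set. Ratios against groups with at most 3 counts in every library use summed counts with an exact 95% interval. These intervals and the floor of 3 counts hold for counting error alone, because reads were not tagged by molecule. Promoters and gene names are from RefSeq (TAIR10.1), and coordinates are of that build.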

Additional observations from a re-analysis of the deposited data

Results flagged for a closer look

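The effect of MB-3 at Day 6 differed from that at Day 4 in 779 loci at an adjusted p under 0.05 (edgeR's quasi-likelihood test of the interaction). Of the named genes 29 were among them, and values are the log2 effect at Day 6 minus that at Day 4. Among the largest rises these were GPAT6 (1.91), AT5G58840 (2.14), ARPN (2.45), AT3G26450 (3.55), AT5G58820 (2.36), GRP3S (1.36), AT2G36970 (2.04), AT5G64120 (2.65), CYP72A14 (2.75), CKX4 (2.16), ABCG8 (2.73) and AO1 (2.01). Other genes with a more positive effect at Day 6 were CYP79B2 (1.44), CYP79B3 (1.27), LBD29 (2.74), CYP71A12 (1.45), CKX2 (2.21), SAG13 (2.44), GSTU9 (1.95), GSTU10 (1.64) and the mitochondria-like nuclear loci AT2G07777 (1.94) and AT2G07671 (1.45). A more negative effect at Day 6 was found for AT1G71695 (-3.06), WAT1 (-1.67), SUC1 (-2.66), WOX4 (-2.64), PXY (-1.74), ATHB8 (-1.47) and SHR (-2.80). Of the 428 loci called higher at Day 6, 246 had a more positive effect than at Day 4 and 0 a more negative one, and of the 375 called lower 20 had a more negative effect and 0 a more positive one. Calls at Day 6 and this difference share the Day 6 libraries. Dixon's test for a sample far from the others was not run, since groups held 3 libraries. MB-3 replicate 6 was set apart by its depth, plastid share, G2/M level and its difference from the other MB-3 libraries, without a test for outliers.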

How the results depend on the processing

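The count of 803 loci called at Day 6 stayed between 591 and 961 when single libraries were left out (265 to 518 lower, 317 to 450 higher), and it was 828 with the replicate block. Restricting the test to genes averaging 5 CPM or more where higher left 491 loci (258 higher, 233 lower), in part because fewer genes were tested. The Day 4 calls higher numbered 24 with the replicate block, against 14 without. The difference of the MB-3 effect between days depended most on the processing. With the replicate block 1211 loci passed (965 higher, 246 lower), DESeq2 gave 224 lower, and leaving out single libraries gave 349 to 1096 (317 to 874 higher, 32 to 222 lower). MB-3 against yucasin under total-count scaling gave 472 higher and 386 lower, and leaving out single libraries gave 720 to 935 (136 to 344 higher, 550 to 621 lower). The cause was not tested.

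Among named genes, MYB3R1 turned to 0.0848 with all splice variants summed. LHCB1.2, near 0 at 0.03, turned to -0.0215 with the block, -0.0940 under total-count scaling, -0.0070 under RLE scaling, -0.0165 with at least 5 CPM, -0.0054 with nuclear loci alone and -0.0010 in DESeq2, and lay between -0.0874 and 0.223 without single libraries. The replicate block put the difference between days of LCR68 (adjusted p 0.00903), AT1G47670 (0.0364), NAC048 (0.00936), IAA14 (0.0385), AT2G07698 (0.0304), TAR2 (0.0231) and VSP2 (0.0331) past 0.05, and it changed the side of 0.05 of AT3G26450, ABCG8, CYP79B2 and HSP17.4 in the comparison with yucasin. Apart from these named genes and the counts given above, the block changed no other call among the genes named. Depth limits genes under about 0.569 CPM, where 3 counts or fewer were read in the shallowest library.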

Other observations

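The median of 20 heat shock genes at Day 6 was 0.96 on the log2 scale, with 6 higher, 1 of them called, and 1 lower. The called gene was HSP17.4, a small heat shock protein, with 225.5, 625 and 376 CPM with MB-3, against 43.2, 82.1 and 62.1 CPM in the control (2.71, adjusted p 0.0028 in edgeR). Its call was lost without MB-3 replicate 7 or control replicate 6 or 8 (adjusted p 0.0144 to 0.0218). The summed level of the list was 1965, 2643 and 1701 CPM with MB-3, against 838, 993 and 830 CPM in the control, and the groups did not overlap. SAG13, a marker of senescence, had 127, 173 and 142 CPM with MB-3, against 22.5, 34.3 and 25.6 CPM in the control (2.43), while BFN1, a nuclease of developmental cell death, was called lower at -2.39. Of 12 senescence and cell death genes 2 were higher and 5 lower, where 14.2% of all loci tested were higher and 13.2% lower.

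Root meristem and homeobox genes did not move together. SCR was higher by 1.199, and SHR was called lower. Among 9 WUSCHEL-related genes tested, WOX12 was called higher at 2.18 and WOX4 called lower at -3.18, and WOX13 was lower at -1.11. The call of WOX12 was lost without MB-3 replicate 7 or 8 or control replicate 6 or 8 (1.82 to 2.29, adjusted p 0.0173 to 0.0488), and in the fit of the 6 libraries alone (2.203, adjusted p 0.0235). Genes of the Polycomb complex included 1 call, with MEA called higher at very low levels (0.805, 1.91 and 0.737 CPM with MB-3, against at most 0.212 CPM in the control) and 1 of 12 genes lower. The call of MEA was lost without MB-3 replicate 7 or control replicate 6 (adjusted p 0.0317 and 0.0113).

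Counts by words in the RefSeq product names, chosen after the values were seen, were as follows. Of 27 genes named kinesin 9 were called lower (33.3%) and 0 higher. Of 38 named arabinogalactan 5 were called lower and 0 higher, and of 43 named glutathione S-transferase 4 were called higher and 0 lower. Of 65 named peroxidase 6 were called higher (9.23%) and 2 lower (3.08%). Of 55 named WRKY 5 were called higher (9.09%) and 2 lower (3.64%). Over all loci tested 2.25% were called higher and 1.97% lower. Other words went both ways or had no call. Of 97 genes named pectin 6 were called higher and 8 lower. For leucine-rich 10 of 184 were called higher and 9 lower, and for expansin 0 of 16 were called.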
